A study of Mus musculus with 6 samples.

Results

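The enzymes that make serine from glucose and those that carry its carbon on folate were examined in the fetal mouse heart. The 10 genes are Phgdh, Psat1, Psph, Shmt1, Shmt2, Mthfd1, Mthfd2, Mthfd1l, Aldh1l1 and Aldh1l2. They were chosen by name from the 31529 genes of the deposited table, and all 10 were found. The hearts were those of wild-type fetuses of the outbred ICR stock, taken on embryonic day 16.5 (E16.5) or 18.5 (E18.5), the later one shortly before birth. There were 3 libraries of polyadenylated RNA at each stage, called biological replicates in the design text. The labels do not say whether a library held 1 heart or several, or whether litters were shared, so the p-values measure the spread between these libraries.

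Serine is made from a glycolytic intermediate in a short cytosolic chain of Phgdh, Psat1 and Psph. The serine hydroxymethyltransferases Shmt1 (cytosol) and Shmt2 (mitochondria) split serine into glycine and a carbon bound to tetrahydrofolate. In mitochondria Mthfd2, or its relative Mthfd2l, and Mthfd1l turn that carbon into formate, which Mthfd1 loads back onto folate in the cytosol for purine and thymidylate synthesis. Aldh1l1 in the cytosol and Aldh1l2 in mitochondria burn the formyl carbon to carbon dioxide with release of NADPH. Growing tissues draw heavily on this cycle, and Mthfd2 is known as an enzyme of embryonic and dividing cells.

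The libraries held 61443414 to 77237333 estimated counts. Genes of the mitochondrial chromosome took 19.9% of the counts in E16.5 replicate 2 and 25.2% to 41.4% in the others, so E16.5 replicate 2 stood apart from its stage. Values compared between libraries are CPM, counts scaled to a common library size after TMM normalisation, which adjusts for such differences in composition. Values compared between genes are the deposited FPKM, which allow for transcript length. Markers of cardiomyocytes were high in every library, with a summed level of 10 genes of 35337 to 47908 CPM. In bulk tissue, fewer cells of a type and less RNA per cell cannot be told apart.

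No change between the stages passed the test for any of the 10 enzyme genes, and for most of them the data also bound how large a change could have been. All 10 passed the filter on low counts. With edgeR's quasi-likelihood test, 0 of 10 had an adjusted p under 0.05, where 0.15% of all 19959 genes tested did. At an unadjusted p under 0.05 there was 1 of 10, Aldh1l1, where the share of all genes was 9.53% (4.83% higher at E18.5, the direction of Aldh1l1). DESeq2 also called 0 of the 10, where it called 1.58% of the 21718 genes to which it gave an adjusted p. The fitted log2 changes were above 0 for 6 and below 0 for 4, with a median of 0.05 against -0.0019 over all genes. For 7 of the 10 the 95% interval of the change lay inside 2-fold in both directions, as it did for 54.8% of all genes, and for 5 of the 10 it lay inside 1.5-fold, against 26.1%. The summed level of the 10 genes, most of it from Shmt2, ran from 178 to 187 CPM in the E16.5 libraries and from 175 to 190 CPM in the E18.5 ones.

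**Figure D1:**
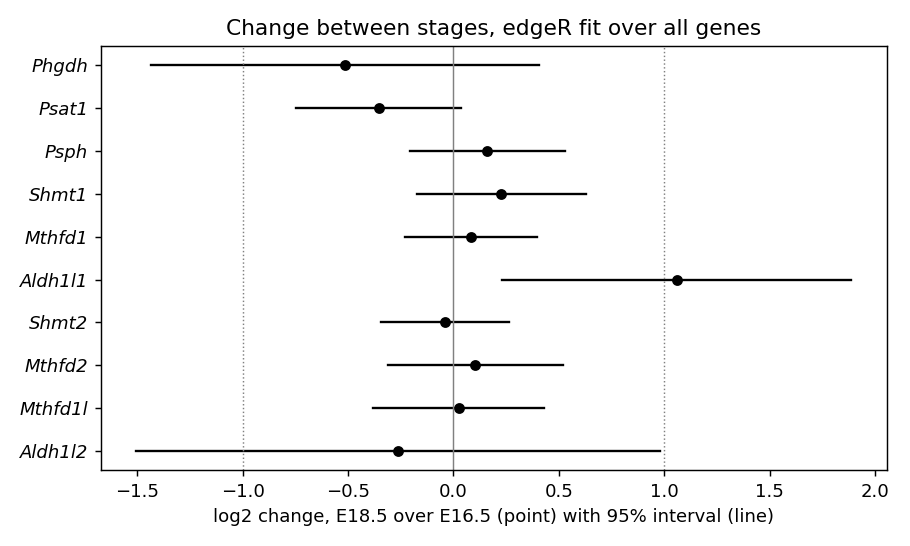
Fitted log2 change from E16.5 to E18.5 (horizontal axis, points) with its 95% interval (lines) for each of the 10 genes (vertical axis, cytosolic enzymes above mitochondrial ones). Dotted lines mark a 2-fold change. The intervals of Phgdh, Aldh1l1 and Aldh1l2 reach past 2-fold, those of the other 7 genes do not, and only that of Aldh1l1 leaves out 0.

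The levels spread widely, and Shmt2 stood far above the rest. On the FPKM scale Shmt2 averaged 28.0 over the 6 libraries, higher than 95.0% of the genes tested, and it made up 53.2% to 61.3% of the summed FPKM of the 10 enzymes. Psat1 followed at 4.49, Shmt1 at 4.06, Mthfd1 at 3.58 and Psph at 2.499. Below them lay Mthfd1l at 1.68, Mthfd2 at 1.64, Phgdh at 1.57, Aldh1l1 at 0.398 and Aldh1l2 at 0.271.

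Not every step in that order was larger than the spread between libraries. Shmt2 was above Psat1, Mthfd1 above Psph, Psph above Mthfd1l, and Phgdh above Aldh1l1 in 6 of 6 libraries. Psat1 against Shmt1, Shmt1 against Mthfd1, Mthfd1l against Mthfd2, and Aldh1l1 against Aldh1l2 kept their order in 4 of 6. Mthfd2 was above Phgdh in 3 of 6, so those levels do not differ beyond their spread.

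**Figure D2:**
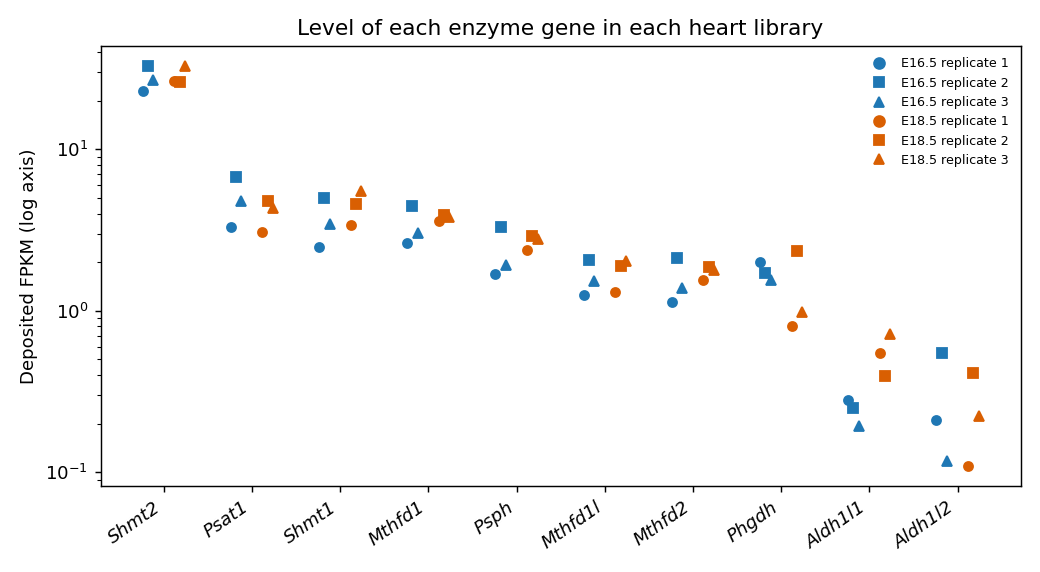
Deposited FPKM (vertical axis, log scale) of each gene (horizontal axis, ordered by mean) in each library, with stages by colour and replicates by symbol. Shmt2 lies between 22.9 and 32.8, while Aldh1l1 and Aldh1l2 stay below 0.72 in every library.

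Phgdh (ENSMUSG00000053398, GRCm38 chromosome 3, 98313170 to 98339990, minus strand) encodes phosphoglycerate dehydrogenase, the entry step of serine synthesis. Its level was 6.78, 3.81 and 4.59 CPM in E16.5 replicates 1, 2 and 3, and 2.34, 5.84 and 2.42 CPM in E18.5 replicates 1, 2 and 3. At E18.5, replicates 1 and 3 lay below every E16.5 library while replicate 2 lay above 2 of the 3, so the stages overlapped. Its log2 change was -0.51 ± 0.40 (SE), with an adjusted p of 0.707 in edgeR and a 95% interval of 0.369-fold to 1.33-fold. Without E18.5 replicate 2 the log2 change was -1.08 (adjusted p = 0.70). The log2 change was -1.28 in the 3 libraries where mitochondrial genes took over 30% of counts, and 0.12 in the other 3. That split was made after seeing the data and leaves 1 library in an arm on each side, E18.5 replicate 1 above 30% and E16.5 replicate 2 below it, so these values show little about stability.

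Phgdh has copies of closely similar sequence, some of them partial matches, with which reads could be shared. The mouse annotation holds 14 genes that match Phgdh transcripts at 95% identity or more over at least 150 bases, and 7 of them are listed in the deposited table. The most abundant copy, Gm7901 (GRCm38 chromosome 8, 75711600 to 75713196), matches over 1597 bases at 98.7% identity. The longest run without a difference is 312 coding bases, bases 978 to 1289 counted from the start codon. Its beginning, bases 978 to 1127, is printed because a read of 150 bases from there fits both genes equally (GENCODE M21 transcript sequence):
Phgdh: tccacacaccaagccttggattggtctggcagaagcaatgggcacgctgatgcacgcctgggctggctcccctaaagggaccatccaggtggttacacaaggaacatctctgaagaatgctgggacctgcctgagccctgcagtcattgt

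The copies were assigned fewest counts in the E18.5 library where Phgdh had most. Their summed level was 1.48, 1.95 and 2.13 CPM in E16.5 replicates 1, 2 and 3, and 1.40, 0.640 and 2.25 CPM in E18.5 replicates 1, 2 and 3. Phgdh with its copies ran at 8.26, 5.75 and 6.72 CPM at E16.5, and at 3.74, 6.48 and 4.67 CPM at E18.5. The sum still had its highest E18.5 value in replicate 2. Its log2 change was -0.48 ± 0.26 (SE), with an adjusted p of 0.592 in edgeR, so it did not pass either. How reads were divided between these genes was not tested.

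Psat1 (ENSMUSG00000024640, chromosome 19, 15904678 to 15947337, minus strand), the phosphoserine aminotransferase, had the lowest p among members with a negative change. It was at 19.1, 25.5 and 24.2 CPM in E16.5 replicates 1, 2 and 3, and at 15.3, 20.3 and 18.1 CPM in E18.5 replicates 1, 2 and 3. Of the E18.5 libraries, replicates 1 and 3 lay below every E16.5 library, and replicate 2 overlapped them. On the log2 scale the change was -0.36 ± 0.17 (SE), an adjusted p of 0.553 in edgeR, with 95% bounds of 0.596-fold and 1.03-fold. On either side of the 30% split, each with an arm of 1 library, the log2 change was -0.50 and -0.41, and the sign was negative under the other alternatives as well.

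Psph (ENSMUSG00000029446, chromosome 5, 129765558 to 129787449, minus strand) encodes the phosphatase that releases serine. It held 10.01, 12.8 and 9.96 CPM in E16.5 replicates 1, 2 and 3, and 12.1, 12.6 and 11.9 CPM in the E18.5 ones. E16.5 replicate 2 was the highest of all 6, and the other E16.5 libraries were the lowest. The log2 change was 0.16 ± 0.16 (SE) with an adjusted p of 0.767 in edgeR, and the interval allowed 0.866-fold to 1.44-fold. Psph overlaps the chaperonin gene Cct6a on the other strand, which held 579% of its level, so its values are uncertain where counting did not use strand. The sum of Psph and Cct6a stood at a log2 change of 0.23 (adjusted p = 0.660 in edgeR).

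Shmt2 (ENSMUSG00000025403, chromosome 10, 127517123 to 127522444, minus strand), the mitochondrial serine hydroxymethyltransferase, was the most abundant member. It was at 96.5, 90.8 and 99.0 CPM in E16.5 replicates 1, 2 and 3, and at 96.7, 81.5 and 100.3 CPM in E18.5 replicates 1, 2 and 3. E18.5 replicate 2 lay below the E16.5 range and replicate 3 just above it, so the stages overlapped. Its log2 change was -0.04 ± 0.13 (SE) with an adjusted p of 0.935 in edgeR, and the 95% interval ran from 0.789-fold to 1.199-fold. Without scaling beyond library totals its sign turned, with a log2 change of 0.04. Shmt2 overlaps exons of Ndufa4l2 on the other strand, which held 18.3% of its level.

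Shmt1 (ENSMUSG00000020534, chromosome 11, 60788104 to 60811718, minus strand), the cytosolic form, ran at 13.1, 17.2 and 15.99 CPM in the E16.5 libraries and at 15.4, 17.9 and 20.96 CPM in the E18.5 ones. The stages overlapped, with 2 of 3 E18.5 libraries above every E16.5 library. Its log2 change of 0.23 ± 0.18 (SE) had an adjusted p of 0.704 in edgeR and an interval of 0.886-fold to 1.55-fold. It overlaps Smcr8 on the other strand, at 75.8% of its level, and their sum stood at a log2 change of 0.15 (adjusted p = 0.746).

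The enzymes that move the carbon between formate and folate were among the tightest of the 10. Mthfd1 (ENSMUSG00000021048, chromosome 12, 76255298 to 76319803), the cytosolic enzyme with synthetase, cyclohydrolase and dehydrogenase activities, held 15.9, 17.8 and 16.1 CPM in the E16.5 libraries and 18.7, 17.4 and 16.6 CPM in the E18.5 ones. The 6 values overlapped within a 1.18-fold range. On the log2 scale the change was 0.08 ± 0.14 (SE), with an adjusted p of 0.863 in edgeR and 95% bounds of 0.853-fold and 1.32-fold.

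Mthfd2 (ENSMUSG00000005667, chromosome 6, 83305691 to 83325908), the mitochondrial dehydrogenase and cyclohydrolase, held 5.44, 6.60 and 5.75 CPM in the E16.5 libraries and 6.38, 6.58 and 6.17 CPM in the E18.5 ones. All E18.5 libraries lay inside the E16.5 range. The log2 change was 0.10 ± 0.18 (SE), with an adjusted p of 0.871 in edgeR and bounds of 0.805-fold and 1.43-fold. Mthfd1l (ENSMUSG00000040675, chromosome 10, 3973118 to 4167081), the mitochondrial formate-tetrahydrofolate ligase, held 7.51, 8.22 and 8.07 CPM in the E16.5 libraries and 6.83, 8.49 and 8.90 CPM in the E18.5 ones. Its E18.5 libraries lay on both sides of the E16.5 range, and the log2 change was 0.02 ± 0.18 (SE) with an adjusted p of 0.973 in edgeR. The sign of the Mthfd1l change reversed with upper-quartile scaling, where it was -0.0035.

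Aldh1l1 (ENSMUSG00000030088, chromosome 6, 90486427 to 90600203), the cytosolic formyltetrahydrofolate dehydrogenase known for its high level in liver and astrocytes, was the 1 member whose stages did not overlap. It was at 1.74, 1.02 and 1.05 CPM in E16.5 replicates 1, 2 and 3, and at 2.90, 1.81 and 3.23 CPM in E18.5 replicates 1, 2 and 3. All 3 E18.5 libraries were above all E16.5 libraries, by a narrow gap between E16.5 replicate 1 and E18.5 replicate 2. Such a separation in this direction was seen for 8.45% of all genes, and in either direction for 16.5%, so 1 of 10 is near the background. Its log2 change was 1.06 ± 0.36 (SE), a 2.08-fold higher level with a 95% interval of 1.17-fold to 3.70-fold, and it failed the correction with an adjusted p of 0.404 in edgeR.

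The Aldh1l1 values rest on 72 to 109 estimated counts per library at E16.5 and 127 to 217 at E18.5. Above and below the 30% mitochondrial share, each with an arm of 1 library, the log2 change was 1.05 and 1.29. Its adjusted p ran from 0.176 to 0.841 over the 17 alternatives, and its direction was the same in all of them.

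The summed levels of 3 marker lists did not overlap between the stages and were higher at E18.5. Those of cardiomyocyte, endothelial, macrophage and erythroid markers overlapped, and that of proliferation markers was lower at E18.5 without overlap. The summed level of 8 epicardial markers was 99.0 to 112 CPM in the E16.5 libraries and 160 to 211 CPM in the E18.5 ones. That of 8 fibroblast markers was 2261 to 3573 CPM in the E16.5 libraries and 3806 to 4994 CPM in the E18.5 ones, and that of 7 smooth muscle markers 628 to 711 and 879 to 944 CPM. Of the epicardial, fibroblast and smooth muscle markers, 1 of 8 (Krt19), 0 of 8 and 0 of 7 passed in edgeR, where 0.15% of all genes did. Hepatocyte markers ranged from 46.1 to 102.4 CPM in the E16.5 libraries and from 40.6 to 126 CPM in the E18.5 ones, and 8 Schwann cell and glial markers from 31.8 to 39.4 and from 30.4 to 33.4 CPM. Of the hepatocyte markers Serpina1a and Fgb averaged below 1 FPKM, as did Sox10, S100b, Erbb3, Foxd3 and Gfap of the glial ones. The part of these cell types in the level of Aldh1l1 was not tested.

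Aldh1l2 (ENSMUSG00000020256, chromosome 10, 83487450 to 83534140, minus strand), the mitochondrial counterpart, differed more between replicates than between stages. It was at 2.15, 3.68 and 1.06 CPM in E16.5 replicates 1, 2 and 3, and at 0.975, 3.13 and 1.65 CPM in E18.5 replicates 1, 2 and 3. The highest library of each stage carried the replicate number 2, and the 6 values covered a 3.78-fold range. On the log2 scale the change was -0.26 ± 0.54 (SE), with an adjusted p of 0.892 in edgeR and a 95% interval from 0.352-fold to 1.97-fold. Without E16.5 replicate 2 it was 0.26, the opposite sign. Aldh1l2 overlaps D10Wsu102e on the other strand, which held 882% of its level and shares 1056 bases of transcript sequence, so its counts are uncertain. The sum of the pair stood at a log2 change of 0.08 (adjusted p = 0.918).

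**Figure D3:**
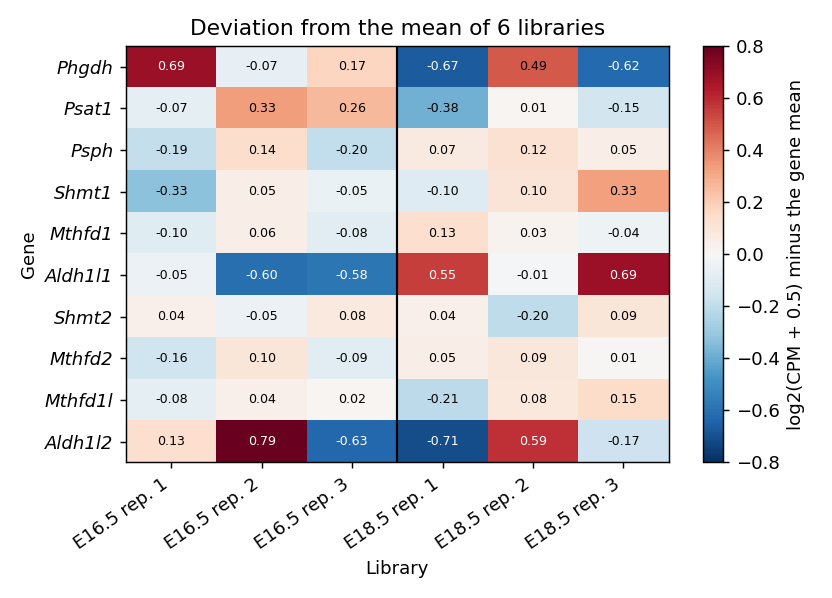
Deviation of log2(CPM + 0.5) from the gene's mean over the 6 libraries (colour and printed value) for each gene (rows) and library (columns, stages divided by the line). Phgdh, Aldh1l1 and Aldh1l2 differ by more than 1 unit between their highest and lowest libraries, while Shmt2, Mthfd1 and Mthfd2 differ by less than 0.30.

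The members did not move as 1 block. Over 45 pairs of members, the correlation of log2 levels across the 6 libraries had a median of 0.09 and ran from -0.92 (Psat1 with Aldh1l1) to 0.96 (Psph with Mthfd2), given as a description of 6 libraries that share their scaling. Psph, Mthfd1 and Mthfd2 were the group most alike, at 0.79 for Psph with Mthfd1 and 0.81 for Mthfd1 with Mthfd2. The values of Psph carry the uncertainty from its overlap with Cct6a. Of the 10 members, 8 were above their own mean in E18.5 replicate 2 and 7 in E16.5 replicate 2, against 3 in E16.5 replicate 1. The last of these had the highest mitochondrial share, 41.4%, and the part of that share in the members' levels was not tested.

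Phgdh correlated with the other members at -0.58 (Aldh1l1) to 0.46 (Aldh1l2), and at 0.44 with Psat1. Among 5401 genes with a mean of at least 5 FPKM, those whose log2 levels were most like Phgdh over the 6 libraries included Tmem127 (Pearson r = 0.97), Fam122a (0.95), Ahsa2 (0.95) and Stk38l (0.94). Spearman's rho was 0.94 for Tmem127, Ahsa2 and Stk38l and 1 for Fam122a. They were picked as the best of 5401 and so are a description only. Their amplitude was far smaller, with Tmem127 between 25.1 and 29.4 CPM where Phgdh covered a 2.89-fold range.

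Ratios within a library do not depend on scaling. They set a mitochondrial enzyme beside its cytosolic partner or, for Mthfd2, beside its mitochondrial relative Mthfd2l. Shmt2 exceeded Shmt1 on the FPKM scale by 9.22, 6.59 and 7.75-fold in E16.5 replicates 1, 2 and 3, and by 7.86, 5.71 and 5.98-fold in E18.5 replicates 1, 2 and 3. The mitochondrial form was therefore the more abundant transcript in 6 of 6 libraries. The stages overlapped, with a log2 difference of -0.27 from E16.5 to E18.5 (exact permutation test, two-sided, p = 0.3, and 0.6 adjusted over 4 pairs, where 0.1 is the smallest p that 3 against 3 libraries can give).

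Mthfd2, the form known from embryonic and dividing cells, was the less abundant of the mitochondrial dehydrogenases at both stages. Mthfd2l, its relative known from adult tissues, was at 2.06 to 2.91 FPKM and Mthfd2 at 1.14 to 2.11 FPKM. The ratio of Mthfd2 to Mthfd2l was 0.552, 0.726 and 0.624 in the E16.5 libraries and 0.636, 0.677 and 0.662 in the E18.5 ones, below 1 in 6 of 6 libraries. It differed by 0.06 on the log2 scale between stages (exact permutation p = 0.7, adjusted 0.9). Mthfd2l, on chromosome 5 at 90931117 to 91021368, had 0.04 ± 0.13 (SE) as a log2 change, with an adjusted p of 0.925 in edgeR.

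The ratio of Mthfd1l to Mthfd1 was 0.472, 0.463 and 0.502 in the E16.5 libraries and 0.365, 0.488 and 0.535 in the E18.5 ones, a log2 difference of -0.07 (exact permutation p = 0.9, adjusted 0.9). The ratio of Aldh1l2 to Aldh1l1 was the most variable, at 0.747, 2.18 and 0.614 in the E16.5 libraries and 0.202, 1.04 and 0.309 in the E18.5 ones. Replicate 2 was the highest within each stage. Its log2 difference of -1.31 did not exceed the spread (exact permutation p = 0.3, adjusted 0.6).

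**Figure D4:**
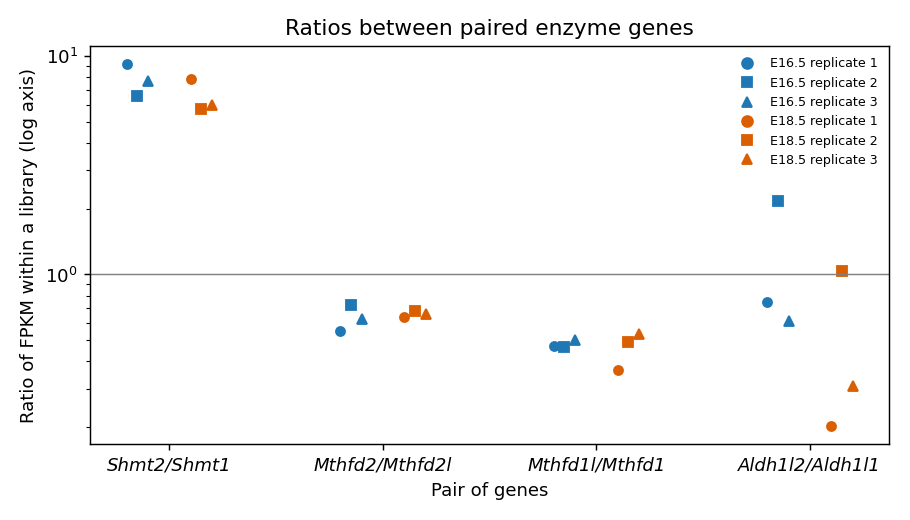
Ratio of deposited FPKM within each library (vertical axis, log scale, with a line at 1) for 4 pairs of genes (horizontal axis), with stages by colour and replicates by symbol. Shmt2 lies 5.71 to 9.22 times above Shmt1 and Mthfd2 below Mthfd2l in every library, while Aldh1l2 against Aldh1l1 falls on both sides of 1.

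The promoters of these genes are often discussed for Atf4, the stress-induced factor that with C/EBP partners drives serine synthesis genes, and for Myc. RefSeq promoter windows (GRCm38.p6, the 250 bases before a start) were listed for 9 of the 10 members. The letters TGATGNAA, a core of the joint Atf4 and C/EBP site, were in 0 of these 9 on either strand, and in 3.45% of all 32851 windows. The Myc E-box CACGTG was in 0 of 9, and in 6.02% of all. The letters CCAAT, read on either strand and bound by NF-Y, were in a window of 7 of the 9 members. Counted by window, as for the shares of all, they were in 7 of 10 member windows and in 33.8% of all windows. A match is a description of letters and not of binding. The windows of Aldh1l1 (chr6:90550543-90550792, plus strand) and Psat1 (chr19:15925060-15925309, minus strand) are printed because these members had the smallest p in each direction, 5′ to 3′ on the gene's strand with CCAAT or its complement ATTGG in capitals. The table lists a further start for Psat1, whose window holds none of these motifs.
Aldh1l1: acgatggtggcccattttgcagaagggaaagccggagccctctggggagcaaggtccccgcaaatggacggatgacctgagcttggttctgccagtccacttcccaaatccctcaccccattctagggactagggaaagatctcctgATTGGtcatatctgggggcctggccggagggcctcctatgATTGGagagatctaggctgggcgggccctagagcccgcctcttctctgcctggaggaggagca
Psat1: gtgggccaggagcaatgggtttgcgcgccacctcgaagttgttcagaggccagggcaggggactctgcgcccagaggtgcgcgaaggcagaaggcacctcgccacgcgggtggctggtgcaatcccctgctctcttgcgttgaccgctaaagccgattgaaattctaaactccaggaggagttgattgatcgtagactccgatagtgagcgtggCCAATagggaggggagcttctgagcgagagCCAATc

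No change in Atf4 or in genes it is known to induce passed the test either. Atf4 was at 178 ± 38.6 CPM (SD, n = 3) in the E16.5 libraries and 190 ± 19.1 CPM in the E18.5 ones, and its log2 change of 0.09 had an adjusted p of 0.887 in edgeR. Of 31 genes in the list of Atf4 and its targets, 29 were tested and 0 passed, with 20 above 0 and 9 below and a median log2 change of 0.12. At an unadjusted p under 0.05, 2 were higher and 1 lower, near the 9.53% of all genes. The member with the smallest p was Pck2, the mitochondrial phosphoenolpyruvate carboxykinase that can feed serine synthesis. Pck2 was at 38.0, 36.4 and 46.9 CPM in the E16.5 libraries and at 27.9, 24.5 and 24.9 CPM in the E18.5 ones. The stages did not overlap, as for 16.5% of all genes. The log2 change of Pck2 was -0.65 ± 0.14 (SE), with an adjusted p of 0.185 in edgeR. Cebpg, a C/EBP partner of Atf4, stood at a log2 change of 0.43 (adjusted p = 0.438), and the stress cytokine Gdf15 at 0.92 (adjusted p = 0.46). For Cebpg and Gdf15 the stages did not overlap either, in the direction opposite to Pck2, and Gdf15 averaged only 0.523 FPKM.

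Myc, a growth factor-induced transcription factor that also drives this pathway, was higher in every E18.5 library without passing. It was at 18.3, 23.5 and 17.4 CPM in the E16.5 libraries and at 30.4, 25.6 and 32.7 CPM in the E18.5 ones. The log2 change was 0.58 ± 0.17 (SE) with an adjusted p of 0.33 in edgeR. A separation of the stages in this direction was seen for 8.45% of all genes.

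The other genes of serine, glycine and folate metabolism were tested from a list. Of 27 listed, 25 were tested and 0 passed, with 10 above 0 and 15 below and a median of -0.05. The smallest p belonged to transporters. At an unadjusted p under 0.05, 1 of the 25 was lower and 1 higher, where the share of all genes was 9.53%. Slc6a9, the glycine transporter, was at 7.26, 9.02 and 9.75 CPM in the E16.5 libraries and 5.45, 3.88 and 4.52 CPM in the E18.5 ones, -0.91 ± 0.21 (SE) as a log2 change, with an adjusted p of 0.218. Slc1a4, a carrier of serine and other neutral amino acids, was at 5.55, 9.08 and 8.77 CPM in the E16.5 libraries and 12.2, 11.7 and 13.2 CPM in the E18.5 ones, 0.66 ± 0.21 (SE) as a log2 change, with an adjusted p of 0.382. For both, the libraries of the stages did not overlap, as for 16.5% of all genes. Slc25a32, Slc46a1, Mtfmt and Sardh of this list were without overlap as well. Sfxn3, a mitochondrial serine carrier, stood at a log2 change of 0.38 (adjusted p = 0.547). Glycine decarboxylase Gldc averaged 0.072 FPKM.

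In a list of purine and pyrimidine nucleotide synthesis genes, 0 of 20 passed in edgeR, with 10 above 0, 10 below and a median of 0.04. Ppat, the committing enzyme of purine synthesis, stood at a log2 change of 0.59 (adjusted p = 0.499), Cad one of 0.28 (adjusted p = 0.626) and Ctps1 one of 0.22 (adjusted p = 0.695). Thymidylate synthase Tyms was at 20.7 and 20.1 CPM, as means of E16.5 and E18.5. In the methionine cycle and transsulfuration list, 0 of 15 passed, with a median of 0.16. Mat2a, which makes the methyl donor S-adenosylmethionine, had a log2 change of 0.59 (adjusted p = 0.526), Ahcy one of -0.29 (adjusted p = 0.584) and Ahcyl1 one of 0.38 (adjusted p = 0.586).

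A list of proliferation markers had no called member either. Of 10 such genes, 4 had a log2 change above 0 and 6 below, with a median of -0.05. At an unadjusted p under 0.05 in edgeR, 2 were lower and 0 higher, where the share of all genes was 9.53%. Their sum was 1022 to 1354 CPM in the E16.5 libraries and 875 to 965 CPM in the E18.5 ones, and 0 of 10 passed over all genes. Without Mki67 the sum of the other 9 was 367 to 425 CPM in the earlier stage and 367 to 382 CPM in the later, which overlap. Mki67 made up most of the sum and had a log2 change of -0.55 in edgeR (adjusted p = 0.432), with overlapping stages. Top2a, Birc5 and Aurkb were lower without overlap, at log2 changes of -0.29, -0.21 and -0.39. The 4 genes above 0 overlapped. Over all genes, 16.5% were without overlap in either direction. The sum of the 10 enzymes, given above, overlapped between the stages, and the difference between the 2 sums was not tested.

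**Figure D5:**
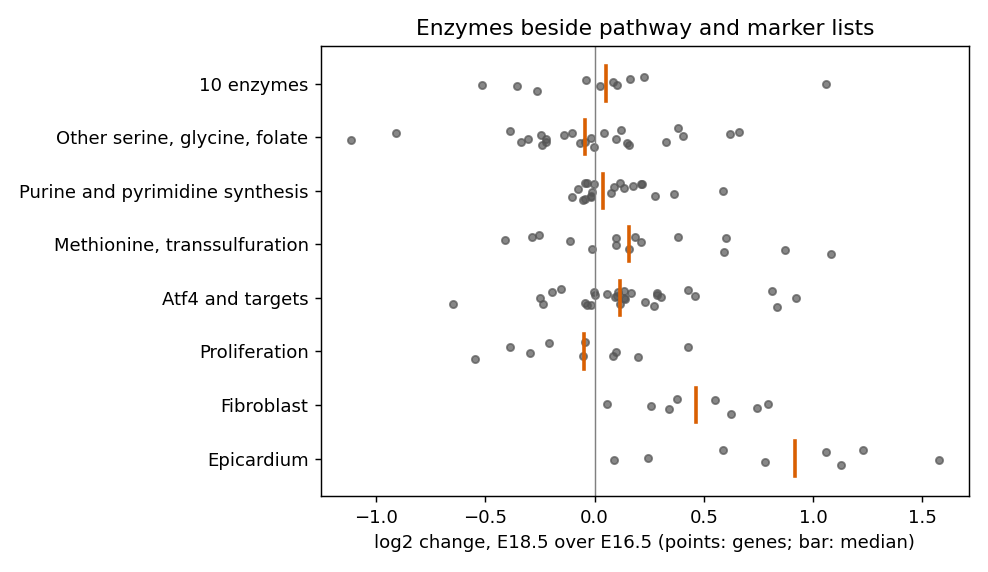
Fitted log2 change from E16.5 to E18.5 (horizontal axis) of each tested gene (points) in the 10 enzymes and 7 lists (vertical axis), with the median as a bar. The medians are 0.05 for the enzymes, -0.05 for other serine, glycine and folate genes, 0.46 for fibroblast markers and 0.92 for epicardial markers.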

How the data were processed

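Per the labels' protocols, poly(A) RNA was sequenced in paired ends from dUTP-marked libraries with molecular identifiers. Tools named in the submitters' processing notes, without roles, are StringTie 1.3.4d, HISAT2 2.0.4, cutadapt 1.9 and UMI-tools. The build named there is mm9. No source used here says whether identifiers or strand entered the counting. The deposited estimated counts are whole numbers per gene and library, and the deposited FPKM values are scaled by length and library, per the file headers. For 99.7% of 11385 genes with over 200 counts in every library, their ratios between libraries agreed within 1%. The test was edgeR's quasi-likelihood test (version 4.0.16, R 4.3.3, filterByExpr, TMM, stage only, two-sided). P-values were adjusted by Benjamini-Hochberg over 19959 genes, and genes under 0.05 passed. SE was taken from the fold change and its F statistic. DESeq2 1.42.0 and limma 3.58.1 were alternatives. The script was checked on simulated data. The common biological coefficient of variation was 34.3%.

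The members and lists were chosen with earlier results of these data known. Named beside the 10 members were Mthfd2l, Atf4 and Myc, the 3 genes of each pathway list with the smallest p, and the 5 genes most like Phgdh, of which 1 is not reported here. Gldc, Tyms, Slc25a32, Slc46a1, Mtfmt, Sardh, Mki67, Top2a, Birc5, Aurkb and Krt19 were named after their values were seen. Positions are from GENCODE M21 (GRCm38), by Ensembl identifier, since the deposited coordinates belong to another build. That build also appeared to differ from the mm9 of the processing notes. List symbols absent from the table were matched through RefSeq synonyms.

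Same-numbered replicates are not stated to share a litter or day, so the main test did not use the numbers as pairs. Their deviations from the stage means correlated at 0.24, 0.33 and -0.08. Those of differently numbered replicates correlated at -0.41 to 0.25. These few values cannot decide whether the numbers mark pairs.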

Additional observations from a re-analysis of the deposited data

How the results depend on the processing

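No member was called under any of the 17 alternatives fitted over all genes. The fits within libraries above or below a mitochondrial share of 30%, and those that summed a member with its copies or overlapping gene, were chosen after seeing the data, and each side of the 30% share has an arm of 1 library, assumed to vary like the others. Genes called, 30 in the report, were 343 with DESeq2, 12 with library totals only, 10 and 18 with limma on log2(FPKM + 1) and log2(FPKM + 0.1), 184 with mitochondrial share as a covariate and 70 below the 30% share. Leaving out 1 library gave 8 (without E16.5 replicate 3) to 371 (without E16.5 replicate 2), and 10 to 16 for the other 4. List genes called, 1 in the report, were 7 with DESeq2, 0 with library totals only and with limma, 4 with the covariate, 0 above and 2 below the 30% share, and 0 to 8 on leaving out 1 library. With the replicate number as a block, 43 genes, 0 members and 2 list genes were called.

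The median change of the members, 0.05, was 0.12 with library totals only (median of all genes 0.07), 0.15 with limma on log2(FPKM + 0.1) (0.099), -0.027 below the 30% share and 0.0070 to 0.16 on leaving out 1 library. Several signs reversed, and the cause was not tested. Mthfd1l was -0.0035 with upper-quartile scaling, -0.018 with the covariate, -0.19 above the 30% share and -0.051 to 0.12 on leaving out 1 library. Shmt2 was 0.041 with library totals only, 0.060 and 0.062 with limma and -0.099 to 0.045 on leaving out 1 library. Below the 30% share Phgdh was 0.12, Psph -0.062, Mthfd1 -0.065 and Mthfd2 -0.053. On leaving out 1 library Aldh1l2 ran from -0.81 to 0.26 and Atf4 from -0.052 to 0.25, and Aldh1l2 was 0.083 with its overlapping gene. The log2 difference on leaving out 1 library ran from -0.033 to 0.17 for the ratio of Mthfd2 to Mthfd2l and from -0.18 to 0.095 for that of Mthfd1l to Mthfd1. It ran from -0.41 to -0.15 for Shmt2 to Shmt1. For Aldh1l2 to Aldh1l1 it ran from -2.001 (without E18.5 replicate 2, exact permutation p = 0.1) to -0.75 (without E16.5 replicate 2). An exact permutation p of 0.1 is the smallest possible after leaving out 1 library. The ratio of Mthfd2 to Mthfd2l also reached it without E16.5 replicate 2. The 65 to 299 counts per library limit Aldh1l1 and Aldh1l2.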
